A study of Mus musculus with 36 samples.

Results

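The miR-221 and miR-222 hairpins give 4 mature miRNAs: mmu-miR-221-3p, mmu-miR-221-5p, mmu-miR-222-3p and mmu-miR-222-5p. They were taken by name from the table of miRNA read counts, which lists 1915 mature mouse miRNAs, and all 4 were found, each on a single row. The libraries, 36 in all, are small RNA libraries of whole kidneys of C57BL/6 mice taken on postnatal day 1, 3 or 7, called P1, P3 and P7. In the Pkd1 model the controls, called WT, carried Pkd1f/f, a Pkd1 gene with its loxP sites and no Cre, and the knockouts, called KO, carried Pkd1f/f with HoxB7-Cre. In the Pkd2 model the controls carried Pkd2f/f and the knockouts Pkd2f/f with HoxB7-Cre, so that every animal of a model, controls included, was homozygous for the floxed allele. HoxB7-Cre is active in the collecting duct, so the deletion reached 1 tubule segment of a kidney that was sequenced whole. Each of the 12 groups of model, age and genotype had 3 libraries, and the controls were littermates of matched age per the study. The labels do not say whether the 3 libraries of a group came from separate animals, so the p-values below measure the spread between libraries.

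Pkd1 and Pkd2 encode the polycystins, membrane proteins of the primary cilium, and their loss lets tubules widen into cysts in autosomal dominant polycystic kidney disease. A miRNA hairpin is cut into 2 arms, named 5p and 3p, of which 1 is usually kept in the silencing complex while the other is degraded. miR-221 and miR-222 lie close together on the X chromosome, share their seed, the stretch at the 5′ end that pairs with target messenger RNAs, and are known for repressing the cell cycle inhibitor p27Kip1 and the receptor Kit.

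The sequences are shown because the shared seed makes the 3p arms readable as a single group. Mature sequences of 3 of the 4 members were found in RefSeq (GRCm38.p6), written 5′ to 3′ with the seed, bases 2 to 8, in capitals.
miR-221-3p: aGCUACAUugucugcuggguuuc
miR-222-3p: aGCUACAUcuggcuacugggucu
miR-221-5p: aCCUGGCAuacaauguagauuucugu

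Both 3p arms have 23 bases and have the same first 8 bases, with 11 of the 23 positions the same in all. Their seed is GCUACAU, and the seed of miR-221-5p, which has 26 bases, is CCUGGCA. The only other miRNA of the table with the seed of the 3p arms in the RefSeq sequences, found for 1623 of the 1915 miRNAs, was miR-1928, which had 0 reads in every library. None shared the seed of miR-221-5p. The hairpins are shown with the mature arms of the list above in capitals, and miR-222-5p is not marked.
Mir221: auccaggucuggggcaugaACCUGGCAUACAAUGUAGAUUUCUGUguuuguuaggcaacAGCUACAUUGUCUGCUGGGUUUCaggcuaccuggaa
Mir222: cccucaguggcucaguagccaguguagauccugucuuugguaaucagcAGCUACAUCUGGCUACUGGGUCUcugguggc

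Mir221 lies at chrX:19146294-19146388 and Mir222 at chrX:19146893-19146971 (GRCm38, the build that mm10 names), both on the minus strand, so that Mir222 comes first in the direction of transcription. Between them are 504 bases. Neither hairpin overlaps another gene of the annotation (GENCODE M21), and the nearest gene on the Mir222 side, Gm14636, lies 10009 bases away at chrX:19156981-19167241.

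The 36 libraries held 12569939 to 32663566 reads each (median 24008082). Levels are given as normalised counts per 1000000 reads (CPM), scaled for each model by trimmed mean of M values (TMM), so that levels are compared within a model. The share of reads taken by miR-10a-5p with miR-10b-5p lay between 31.4% and 81.0%, and it varied within groups as well as between them. Kidney epithelial markers were present in every library, the least abundant, miR-194-5p, with at least 1164 reads. Since no messenger RNA was measured in the libraries used here, Pkd1 and Pkd2 transcripts could not be used to check the genotypes.

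The 3p arms were the main products of both hairpins. miR-221-3p had between 1479 and 10197 reads in a library, and its mean level ranked it number 113 of 775 miRNAs. miR-222-3p had between 807 and 6350 reads and ranked number 143. The 5p arms were lower: miR-221-5p had 90 to 1834 reads and miR-222-5p 12 to 235, so every member was above the floor of 3 reads in every library. The 12 reads of miR-222-5p, in WT replicate 2 of the Pkd1 model at P7, were close to the cut of 10 counts used for testing. Over all libraries the level of miR-221-5p spanned a 66.4-fold range in CPM, against 4.93-fold for miR-221-3p, 5.45-fold for miR-222-3p and 4.19-fold for miR-222-5p. Without the highest library, KO replicate 2 of the Pkd1 model at P3, the range of miR-221-5p was 38.9-fold. The arm of least reads was thus not the one of widest range.

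**Figure D1:**
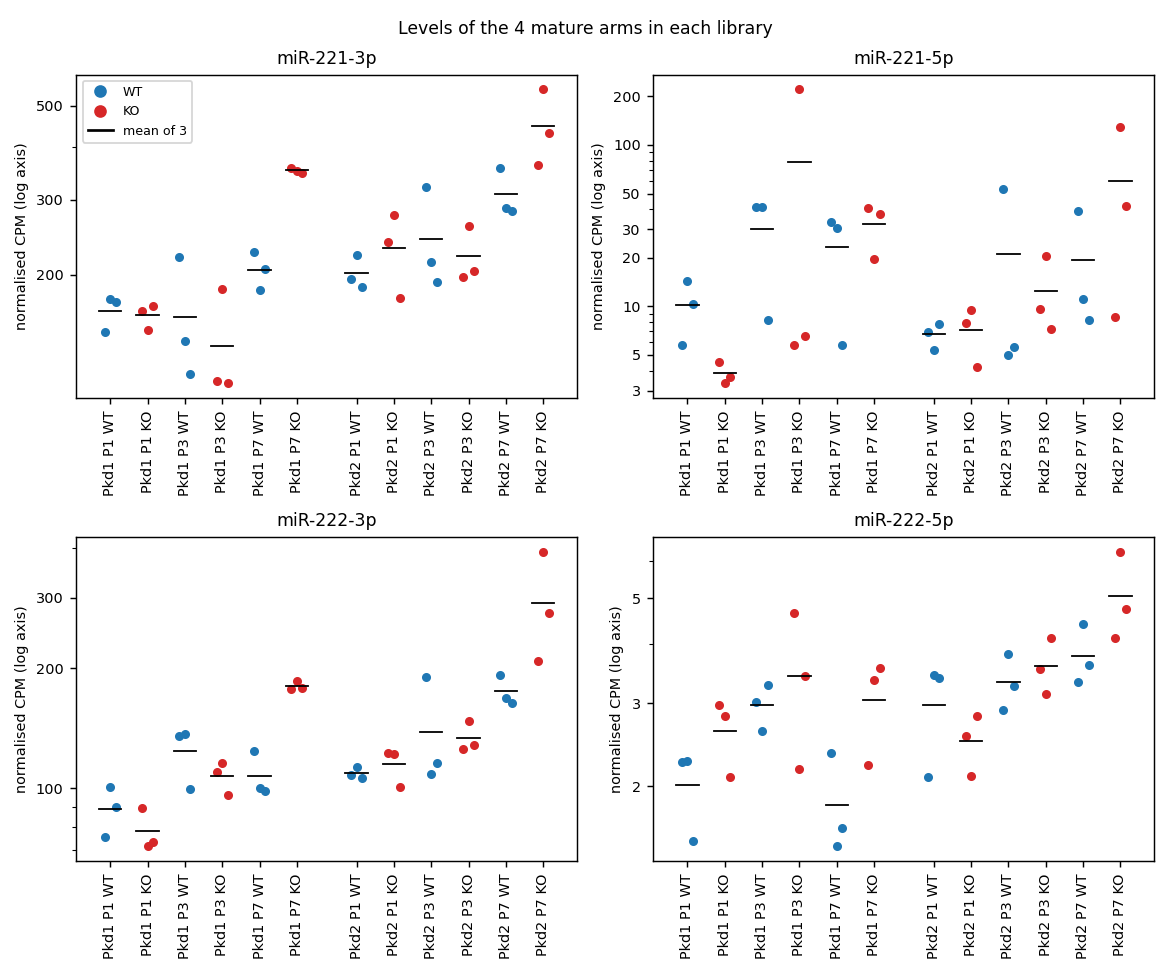
Normalised CPM (log axis, scaled within each model) of the 4 mature arms in each library, by model, age and genotype, with WT in blue, KO in red and a bar at the mean of 3 libraries. Both 3p arms are highest in the P7 KO groups, at a mean of 352 and 447 CPM for miR-221-3p, and miR-221-5p reaches 221.4 CPM in a single P3 KO library of the Pkd1 model.

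The KO kidneys at P7 had the highest mean levels of both 3p arms in both models. In the Pkd1 model miR-221-3p stood at 357, 352 and 348 CPM in the 3 KO libraries and at 226, 184 and 207 CPM in the 3 WT libraries. All KO libraries were above all WT libraries, and the KO libraries lay close together. The mean was 352 ± 4.70 CPM (SD, n = 3) in KO and 206 ± 20.8 CPM (SD, n = 3) in WT, and the fitted difference on the log2 scale was 0.78 ± 0.23 (SE), a 1.71-fold higher level. Its adjusted p was 0.157, which did not pass 0.05. miR-222-3p stood at 177, 186 and 178 CPM in KO and at 124, 101 and 98.6 CPM in WT, again without overlap, and its log2 difference was 0.75 ± 0.17 (SE) with an adjusted p of 0.0705.

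The 5p arms of the same Pkd1 kidneys had the same sign with more spread. miR-222-5p stood at 2.22, 3.35 and 3.56 CPM in KO and at 2.36, 1.49 and 1.63 CPM in WT, so 1 KO library lay within the range of WT. Its log2 difference was 0.75 ± 0.31 (SE), with an adjusted p of 0.417. miR-221-5p stood at 40.5, 19.6 and 37.4 CPM in KO and at 33.5, 30.8 and 5.76 CPM in WT. These groups overlapped, and the log2 difference of 0.48 had an SE of 1.05. In the Pkd1 model at P7 edgeR thus called 0 of 4 members, while 3 of the 4 had an unadjusted p under 0.05 and DESeq2 called 1, miR-222-3p (adjusted p = 0.00453), with 2.41% of all miRNAs. DESeq2 gave no p for miR-221-5p in any Pkd1 comparison, so its counts there are out of 3 members. Over all 706 miRNAs tested, edgeR called 0.425%. The 3p arms were the 2 members whose groups did not overlap with KO higher, a pattern that 8.36% of all miRNAs tested had.

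In the Pkd2 model at P7, all 4 members had a higher fitted level in KO, and miR-222-3p was the only member called. It stood at 209, 391 and 274 CPM in KO and at 192, 169 and 164 CPM in WT. All KO libraries were above all WT libraries, though the lowest KO library was close to the highest WT library. The mean was 291 ± 92.05 CPM (SD, n = 3) in KO and 175 ± 15.3 CPM (SD, n = 3) in WT, and the log2 difference was 0.73 ± 0.23 (SE), a 1.66-fold rise with an adjusted p of 0.0425. The call rested on several libraries: without KO replicate 2, the highest, the log2 difference was 0.43 and the adjusted p 0.183, and leaving out KO replicate 3 or any of the 3 WT libraries also took the adjusted p above 0.05, to between 0.0750 and 0.157. With library totals in place of TMM it was 0.175, and in a fit of the 6 libraries compared it was 0.0829.

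miR-221-3p in the same Pkd2 kidneys stood at 362, 547 and 431 CPM in KO and at 356, 288 and 283 CPM in WT. The groups did not overlap, by a margin smaller than the spread within either, and the log2 difference of 0.53 ± 0.22 (SE) had an adjusted p of 0.120. Without KO replicate 2 it was 0.32. miR-221-5p stood at 8.63, 130 and 41.7 CPM in KO and at 38.9, 11.2 and 8.20 CPM in WT, groups that overlapped widely, with a log2 difference of 1.63 ± 0.92 (SE) and an adjusted p of 0.268, and 0.33 without KO replicate 2. miR-222-5p stood at 4.12, 6.26 and 4.75 CPM in KO and at 3.33, 4.42 and 3.61 CPM in WT, with a log2 difference of 0.40 ± 0.24 (SE). The Pkd2 comparison thus called 1 of 4 members, beside 12.6% of the 746 miRNAs tested, and the 2 members whose groups did not overlap stood beside 14.3% of all miRNAs with that pattern in the same direction.

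When both models were fitted together and their KO effects at P7 averaged, both 3p arms passed the test. The mean log2 difference of miR-222-3p was 0.68 ± 0.14 (SE) with an adjusted p of 0.00358, and that of miR-221-3p was 0.59 ± 0.17 (SE) with an adjusted p of 0.0321. miR-222-5p had 0.52 ± 0.19 (SE) and an adjusted p of 0.0791, and miR-221-5p had 1.00 ± 0.74 (SE) and an adjusted p of 0.456. This was 2 of 4 members called, where 8% of the 775 miRNAs tested were. The call of miR-222-3p held with each of the 12 libraries of P7 left out in turn, at adjusted p from 0.000686 to 0.0131. That of miR-221-3p held in 4 of the 12 and otherwise reached an adjusted p of up to 0.0800. The libraries whose removal took it above 0.05 were WT replicates 1 and 2 and KO replicates 1 and 2 of the Pkd1 model and WT replicates 2 and 3 and KO replicates 2 and 3 of the Pkd2 model. Without a filter on low counts miR-221-3p also missed the threshold, at an adjusted p of 0.0512. Neither arm passed with library totals in place of TMM, at adjusted p of 0.213 for miR-222-3p and 0.271 for miR-221-3p, with differences of 0.67 and 0.60. This mean rests on the same libraries as the comparisons within each model.

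Because both 3p arms carry the same seed, their levels were also summed. At P7 the sum in the Pkd1 model was 534, 537 and 526 CPM in KO and 350, 285 and 305 CPM in WT. The Pkd2 sums were 571, 937 and 706 CPM in KO and 549, 457 and 447 CPM in WT. In every P7 KO library the sum was above that of every WT library of its model and age. This follows from the arms, each of which was already without overlap, and is no further result.

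Before P7 the fitted differences of the 3p arms between genotypes were smaller than at P7. At P1 in the Pkd1 model, miR-221-3p stood at 164, 148 and 169 CPM with Cre and at 146, 175 and 172 CPM without. The Pkd2 kidneys of that age had 239, 277 and 177 CPM with Cre and 195, 222.2 and 187 CPM without. The genotypes overlapped in both models. The log2 differences of the 3p arms at P1 and P3 lay between -0.23, for miR-221-3p at P3 in the Pkd1 model, and 0.20, for miR-221-3p at P1 in the Pkd2 model. In each of these 4 comparisons edgeR called 0 of 4 members, 0 had an unadjusted p under 0.05, DESeq2 called 0, and 0% of all miRNAs tested were called by edgeR. Of all miRNAs, DESeq2 called 9 of 706 at each age in the Pkd1 model and 0 of 746 at each age in the Pkd2 model. In edgeR 59 and 64 of the 706 had an unadjusted p under 0.05 at P1 and P3, and 41 and 11 of the 746. The interval of 2 SE on each side of the P1 difference in the Pkd1 model ran from -0.49 to 0.42 for miR-221-3p. For miR-222-3p it ran from -0.52 to 0.15. In the Pkd2 model the intervals were, in the same order, -0.25 to 0.64 and -0.38 to 0.53. Changes within these bounds were thus not excluded.

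The largest early differences were those of miR-221-5p. At P1 in the Pkd1 model it stood at 4.54, 3.33 and 3.65 CPM in KO and at 5.80, 14.4 and 10.3 CPM in WT, so it was the only member whose groups did not overlap with KO lower, beside 8.22% of all miRNAs. The log2 difference of -1.40 had an SE of 1.08. At P3 in the same model it stood at 5.77, 221.4 and 6.60 CPM in KO and at 41.4, 41.0 and 8.20 CPM in WT. A single library, KO replicate 2, set that difference: it was 1.36 ± 1.06 (SE) with the library and -2.29 without it. At P3 in the Pkd2 model the values were 9.62, 20.5 and 7.25 CPM in KO and 53.0, 5.03 and 5.63 CPM in WT, and without WT replicate 1 the difference of -0.75 became 1.22.

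**Figure D2:**
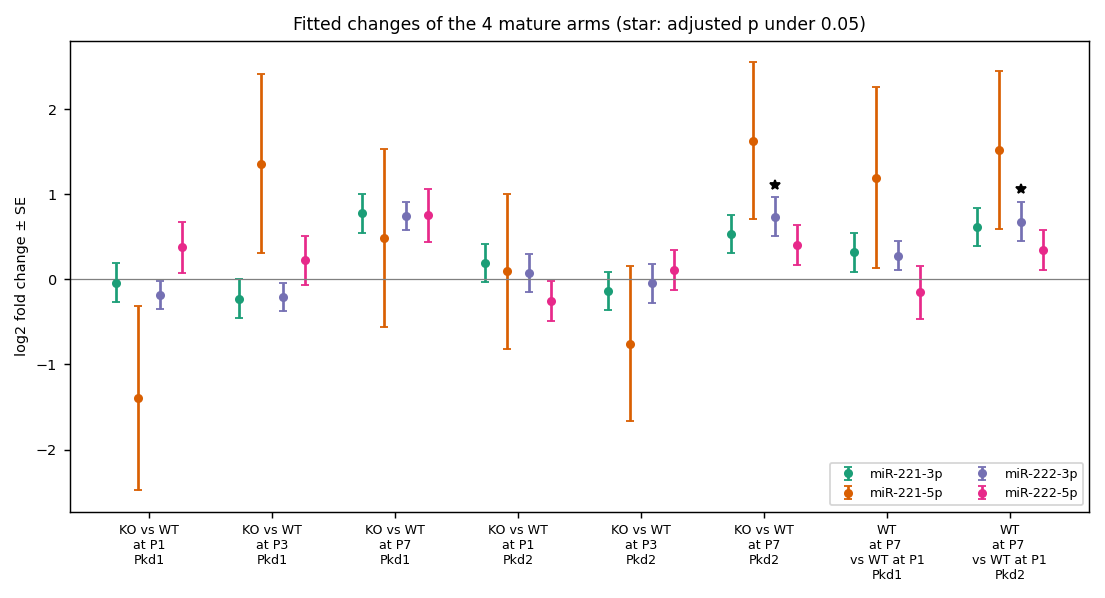
Fitted log2 fold change of the 4 mature arms with its SE for the KO effect at each age and for the WT change from P1 to P7, per model, with a star where the adjusted p was under 0.05. The 2 stars are on miR-222-3p in the Pkd2 model, and the bars of miR-221-5p, with an SE from 0.91 to 1.08, are wider than those of the other arms.

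The effect at P7 was set against that at P1 within each model. For miR-222-3p the KO effect was larger at P7 by 0.93 ± 0.24 (SE) on the log2 scale in the Pkd1 model, with an adjusted p of 0.201, and by 0.66 ± 0.32 (SE) in the Pkd2 model, with an adjusted p of 0.312. For miR-221-3p the values were 0.81 ± 0.32 (SE), with an adjusted p of 0.389, and 0.34 ± 0.32 (SE), with an adjusted p of 0.682. All 4 members had a positive value in both models. Within the Pkd1 model edgeR called 0 members, 2 had an unadjusted p under 0.05, and DESeq2 called 1, miR-222-3p (adjusted p = 0.0232). There edgeR called 0.142% of all miRNAs and DESeq2 0.708%, and 85 of 706 had an unadjusted p under 0.05 in edgeR. Within the Pkd2 model edgeR called 0 members, 0 had an unadjusted p under 0.05, and DESeq2 called 0, where edgeR called 0.536%. DESeq2 called 33 of all 746 miRNAs, and 126 had an unadjusted p under 0.05 in edgeR.

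The KO effects at P7 were also compared between the models. That of miR-222-3p was 0.02 ± 0.29 (SE) larger in the Pkd1 model on the log2 scale, with an interval of 2 SE from -0.56 to 0.59, and that of miR-221-3p was 0.24 ± 0.34 (SE) larger, with an interval from -0.44 to 0.92. edgeR called 0 members, 0 had an unadjusted p under 0.05 and DESeq2 called 0, where edgeR called 0.387% of all miRNAs. DESeq2 called 4 of all 775 miRNAs, and 93 had an unadjusted p under 0.05 in edgeR. The intervals are wide beside the effects themselves, so a moderate difference between the models was not excluded.

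Levels in the WT kidneys were compared between P7 and P1, with the same P7 libraries that served as controls of the KO kidneys. In the Pkd2 model miR-222-3p stood at 192, 169 and 164 CPM at P7 and at 108, 113 and 106.4 CPM at P1, without overlap, and its log2 rise was 0.68 ± 0.23 (SE) with an adjusted p of 0.0345. miR-221-3p stood at 356, 288 and 283 CPM at P7 and at 195, 222.2 and 187 CPM at P1, with a log2 difference of 0.62 ± 0.22 (SE) and an adjusted p of 0.0501. The scaling set the sign, since without TMM, on library totals, the differences were -0.06 for miR-222-3p and -0.13 for miR-221-3p. That scaling moved the median difference of all miRNAs to -0.78, so relative to the other miRNAs both arms were still higher at P7. Of the 4 members 1 was called, beside 28.3% of all miRNAs, and 3 members did not overlap with P7 higher, beside 22.1%. The share called among the members was no higher than that over all miRNAs. The call of miR-222-3p was lost when any of 5 of the 6 libraries, all but P7 replicate 3, was left out, with adjusted p up to 0.1001.

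The same WT comparison in the Pkd1 model gave a log2 difference of 0.28 ± 0.17 (SE) for miR-222-3p and 0.32 ± 0.23 (SE) for miR-221-3p with TMM, and of -0.38 and -0.32 with library totals alone, where the median of all miRNAs was -0.68. edgeR called 0 members, 0 had an unadjusted p under 0.05 and DESeq2 called 0, where edgeR called 21.5% of all miRNAs. DESeq2 called 181 of all 706 miRNAs, and 256 had an unadjusted p under 0.05 in edgeR. The groups of miR-221-3p did not overlap, with P7 higher, beside 16.7% of all miRNAs.

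The order of the 6 groups of a model was read from the means. For miR-221-3p in the Pkd1 model it was KO at P7 (352 CPM), WT at P7 (206 CPM), WT at P1 (165 CPM), KO at P1 (160 CPM), WT at P3 (159 CPM) and KO at P3 (136 CPM). The first 2 groups stood apart from the next in line, and each later neighbour overlapped. WT at P7, at 184 to 226 CPM, still overlapped groups further down, WT at P3 (up to 220 CPM) and KO at P3 (up to 185 CPM). For miR-222-3p in the Pkd1 model KO at P7 (180.5 CPM) stood apart from WT at P3 (124 CPM), and from there on every neighbour overlapped, down to KO at P1 (78.2 CPM). In the Pkd2 model KO at P7 led for both arms (447 CPM for miR-221-3p and 291 CPM for miR-222-3p), WT at P7 followed (309 and 175 CPM), and WT at P1 was lowest (202 and 109 CPM). For both arms the ranges of KO and WT at P7 were apart, while WT at P7 and WT at P3 overlapped. Further down, the only neighbours apart were KO at P3 and KO at P1 for miR-222-3p (134 and 115 CPM). The share of all miRNAs apart was not counted for this pair. Nor was it counted for KO at P7 and WT at P3 in the Pkd1 model.

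The arms of each hairpin were compared as the log2 ratio of 3p reads to 5p reads within a library, with 0.5 added to each count, a measure that needs no scaling between libraries. The miR-222 ratio was steady. It lay between 4.56 and 6.28 with a median of 5.52, the 3p arm exceeded the 5p arm in 36 of 36 libraries, and the 5p arm made up a median of 2.12% of the reads of both arms. The miR-221 ratio ran from -0.26 to 5.53 with a median of 4.32, and its SD over the 36 libraries was 1.30 against 0.44 for miR-222. Among the 112 hairpins whose arms both had a median of at least 100 reads, miR-221 had the third widest SD, after miR-10b and miR-145a, where the median SD was 0.51.

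The 3p arm of miR-221 exceeded the 5p arm in 35 of 36 libraries. The exception was KO replicate 2 of the Pkd1 model at P3, with 1834 reads of miR-221-5p against 1530 of miR-221-3p. The 5p arm there made up 54.5% of the reads of both arms (95% Wilson interval 52.8% to 56.2%), where the other KO libraries of that group had 4.89% and 5.62%. The interval covers counting error only. This library also had the lowest total, 12569939 reads, and a miR-10 share of 79.8%, where the other 2 had 31.4% and 40.6%. miR-222 in the same library was within its usual range, with 1.84% of its reads from the 5p arm. The next highest miR-221-5p shares were those of WT replicate 2 at P3 of the Pkd1 model (22.7%) and KO replicate 2 at P7 of the Pkd2 model (19.2%), followed by WT replicate 1 at P3 of the Pkd1 model (15.8%).

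**Figure D3:**
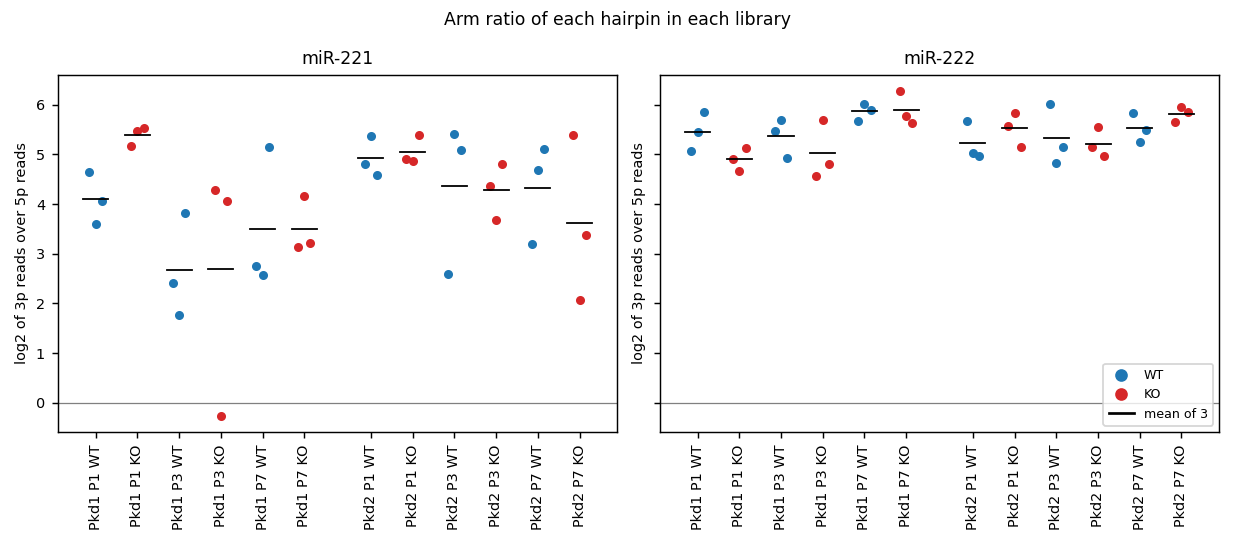
Log2 ratio of 3p to 5p reads of the miR-221 hairpin (left) and the miR-222 hairpin (right) in each library, with WT in blue, KO in red and a bar at the mean of 3 libraries. The miR-222 points lie between 4.56 and 6.28, while the miR-221 points spread from -0.26 to 5.53, also within groups.

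Neither arm ratio differed by genotype beyond the spread between libraries. Over the 6 pairs of KO and WT groups of the same model and age, the miR-221 ratio was on average 0.11 higher in KO, with 4 pairs higher and 2 lower (exact two-sided permutation test within the pairs, p = 0.775, adjusted p = 0.963). Its largest difference was at P1 in the Pkd1 model, where KO was higher by 1.29, and at P7 in the Pkd2 model KO was lower, at -0.72. For miR-222 the mean difference was -0.06, with 3 pairs higher and 3 lower (p = 0.616, adjusted p = 0.963 in the same permutation test). Between WT at P7 and WT at P1 the miR-221 ratio was lower at P7 in both models (mean -0.60, p = 0.265, adjusted p = 0.795) and the miR-222 ratio higher in both (mean 0.36, p = 0.0800, adjusted p = 0.480), by the same exact permutation test, whose smallest p is 0.0025 there. The adjustment was over 6 tests of ratios.

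The miR-221 arm ratio moved with the miR-10 share of the library. Over the 36 libraries Pearson's r was -0.66 (permutation p = 1e-05, the smallest that 100000 permutations can give, adjusted p = 2.3e-05) and Spearman's rho was -0.64 (permutation p = 4e-05). r was -0.67 without the 2 libraries farthest from the median share, -0.44 within the Pkd1 model and -0.96 within the Pkd2 model. For deviations from the group means r was -0.97 (permutation within groups, p = 1e-05), so libraries of 1 group with more miR-10 had relatively more miR-221-5p. The miR-222 ratio had the opposite sign, with r = 0.67 (permutation p = 4e-05), rho = 0.67 and 0.79 for the deviations. Of the 112 hairpins, 22 had a lower r with the miR-10 share than miR-221, and the median r was -0.11. The relation was chosen after the values were seen, and what it comes from was not tested.

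**Figure D4:**
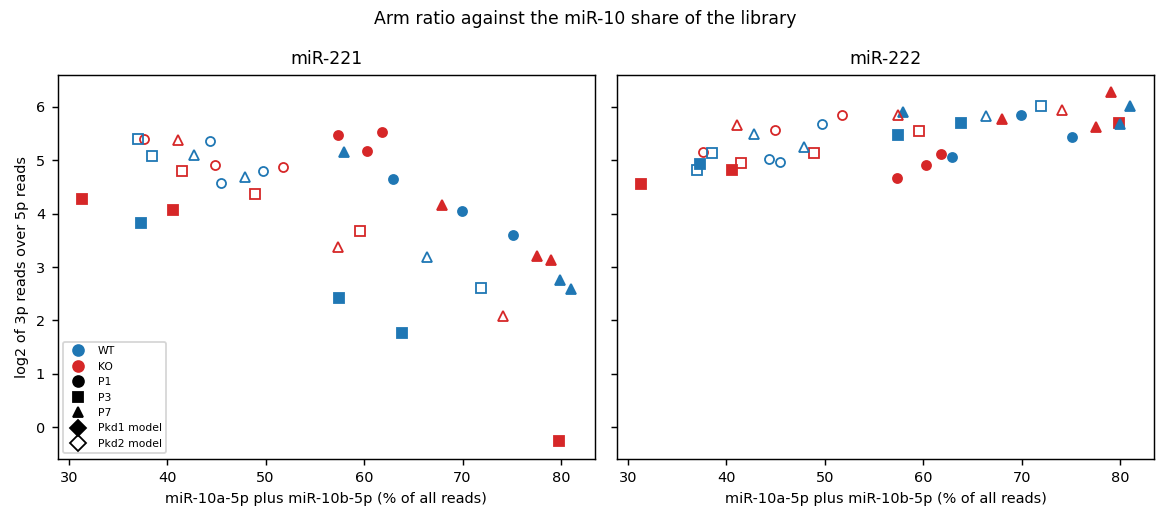
Log2 ratio of 3p to 5p reads of miR-221 (left) and miR-222 (right) against the percent of all reads that came from miR-10a-5p and miR-10b-5p, 1 point per library, with colour for genotype, shape for age and open points for the Pkd2 model. The miR-221 ratio falls from left to right (r = -0.66 over 36 libraries) and the miR-222 ratio rises (r = 0.67).

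The miR-10 share also moved with the scaled levels of 3 members, with r of 0.76 for miR-221-5p, 0.68 for miR-221-3p and 0.53 for miR-222-3p (permutation p of 1e-05, 1e-05 and 0.00081) and rho of 0.72, 0.67 and 0.52. For miR-222-5p r was -0.12 (permutation p = 0.49). These permutations ran over all 36 libraries without regard to group. For deviations from group means r was 0.98, 0.75 and 0.75, and -0.40 for miR-222-5p. The levels are divided by a TMM factor that was lower where the miR-10 share was high. In the Pkd1 model it was 2.13 at a share of 31.4% and 0.471 at 79.9%. The share and the scaled levels are thus not independent. At P7 the mean share was 74.8% in KO and 72.9% in WT of the Pkd1 model, and 57.5% in KO and 52.4% in WT of the Pkd2 model, with overlap in both. When the share entered the fit as a covariate, the differences of miR-222-3p at P7 were 0.73 in the Pkd1 model (adjusted p = 0.0118) and 0.60 in the Pkd2 model (adjusted p = 0.00362). Those of miR-221-3p were 0.74 (adjusted p = 0.0350) and 0.43 (adjusted p = 0.0188), so both 3p arms passed in both models in that fit, which also called more of all miRNAs, 2.55% for Pkd1 and 22.5% for Pkd2.

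The 3p arms of the 2 hairpins kept close to a fixed proportion. miR-221-3p exceeded miR-222-3p in 36 of 36 libraries, and the log2 ratio of their reads had a median of 0.82 and an SD of 0.28. The ratio lay between 0.03 and 0.22 in 4 libraries, 2 KO and 2 WT of the Pkd1 model at P3, and at 0.48 or more in the other 32. KO and WT did not differ in it beyond the spread, with a mean difference of -0.003 over the 6 pairs (exact permutation p = 0.963) and with values per pair from -0.17 to 0.14. WT at P7 and WT at P1 differed by -0.01 (exact permutation p = 0.805).

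**Figure D5:**
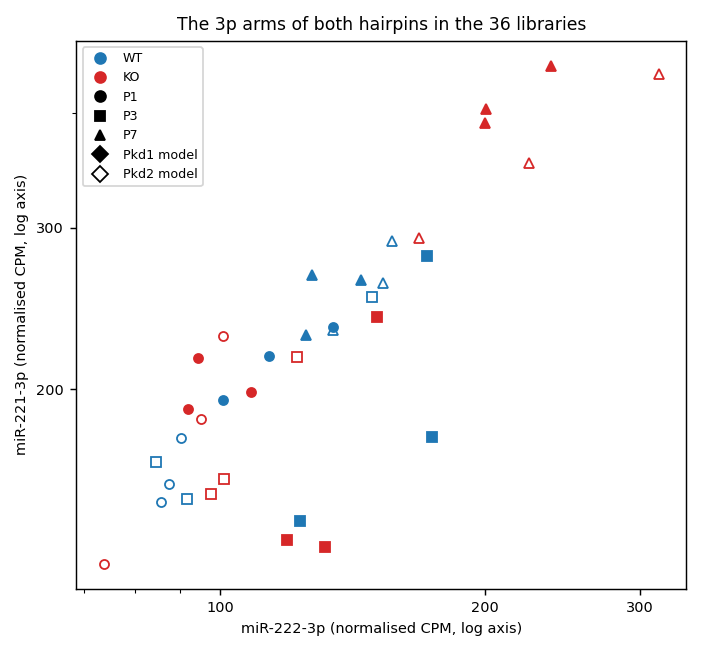
miR-221-3p against miR-222-3p (normalised CPM in a single scaling of all libraries, both axes logarithmic), 1 point per library, with colour for genotype, shape for age and open points for the Pkd2 model. The levels rise together (r = 0.84 over 36 libraries), and 4 P3 libraries of the Pkd1 model, with the lowest ratios of miR-221-3p to miR-222-3p, lie below the band of the other points.

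Across libraries, all scaled together, miR-221-3p and miR-222-3p had r = 0.84 and rho = 0.80 (permutation p = 1e-05 for both, adjusted p = 3e-05 over 6 pairs of members). Except for deviations from group means, the permutations for pairs of members ran over all libraries without regard to group. r was 0.78 without the 2 libraries farthest from the median, 0.69 within the Pkd1 model, 0.96 within the Pkd2 model and 0.80 for deviations from the group means. The arms of 1 hairpin were less close: miR-221-3p and miR-221-5p had r = 0.64 (rho = 0.66, permutation p = 3e-05 for both), and miR-222-3p and miR-222-5p had r = 0.52 (rho = 0.47, permutation p = 0.0011 and 0.0038). For the miR-222 arms r was 0.39 without the 2 farthest libraries and 0.03 for deviations from group means (permutation within groups, p = 0.86), so that relation lay between groups. For the miR-221 arms r of the deviations was 0.77 (permutation within groups, p = 0.00033), near the 0.80 of the 3p arms. Over all libraries miR-221-5p was closer to miR-222-3p (r = 0.77, rho = 0.84) than to the 3p arm of its own hairpin, a difference that was not tested. For deviations from group means the r were 0.76 and 0.77, so this order did not hold within groups. miR-222-5p had r of 0.19 with miR-221-3p and 0.18 with miR-221-5p (permutation p = 0.27 and 0.28). Scaling with library totals alone turned the r of the miR-221 arms to -0.23, so that relation depended on TMM.

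Among 321 other miRNAs with a mean of at least 10 CPM, the 5 whose log2 CPM followed miR-221-3p most closely over the 36 libraries were miR-21a-5p (r = 0.89), miR-23b-3p (r = 0.86), miR-23a-3p (r = 0.83), miR-24-3p (r = 0.83) and miR-185-5p (r = 0.82). Only the first 2 of them had a higher r with it than miR-222-3p had. For miR-222-3p they were miR-21a-5p (r = 0.88), miR-23a-3p (r = 0.85), miR-185-5p (r = 0.78), miR-125a-5p (r = 0.77) and miR-96-5p (r = 0.76), beside 0.84 for miR-221-3p. miR-21a-5p, a miRNA that rises in many injured and growing tissues, thus led both lists. For miR-221-5p, a search added after the values were seen, the leading miRNAs were miR-186-5p (r = 0.91), miR-322-5p (r = 0.88), miR-155-5p (r = 0.88), miR-145a-5p (r = 0.88) and miR-96-5p (r = 0.87). All points share the scaling of their library, so these values are a description.

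Of 11 growth-linked miRNAs (miR-17-5p, miR-18a-5p, miR-19a-3p, miR-19b-3p, miR-20a-5p, miR-92a-3p, miR-106b-5p, miR-93-5p, miR-25-3p, miR-21a-5p and miR-155-5p), 1 was called between KO and WT at P7 in each model. It was miR-21a-5p, which rose by 1.45 ± 0.17 (SE) on the log2 scale in the Pkd1 model (adjusted p = 0.00017) and by 1.12 ± 0.25 (SE) in the Pkd2 model (adjusted p = 0.0148). The medians of the list were 0.16 and -0.13, beside 0.01 and 0.02 over all miRNAs. Both 3p arms had smaller differences than miR-21a-5p and larger ones than the median of the list in both models.

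The miRNAs of the X chromosome outside the 2 hairpins were read as a list, and only the mean over both models had calls in both directions at P7. At P7 in the Pkd1 model 0 of 60 tested were called by edgeR and 9 had an unadjusted p under 0.05, with a median log2 difference of 0.09. Of 64 tested in the Pkd2 model 4 were called, all lower in KO, beside 12.6% of all miRNAs, and the median was -0.02. The largest falls were those of miR-363-3p (-0.84 ± 0.17, SE), miR-18b-5p (-0.73 ± 0.22, SE) and miR-20b-5p (-0.70 ± 0.20, SE), which share a cluster on that chromosome. In the mean over both models, where both 3p arms were called, the median was -0.05 beside -0.03 over all miRNAs. There 7 of 64 were called, 2 higher and 5 lower, beside 8% of all miRNAs. The largest of these changes were those of miR-465c-5p (-2.90 ± 0.69, SE), miR-201-5p (-1.11 ± 0.26, SE) and miR-224-5p (1.01 ± 0.26, SE), the last with a rise whose difference from that of the 3p arms was not tested.

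Markers of cell types were read in the Pkd2 model at P7, and only kidney epithelial markers were called. Of all 746 miRNAs edgeR called 12.6%, and 216 had an unadjusted p under 0.05. Of 5 kidney epithelial markers 3 were called lower in KO, miR-192-5p (-1.13 ± 0.34, SE), miR-194-5p (-0.95 ± 0.21, SE) and miR-204-5p (-0.92 ± 0.21, SE). The summed level of the 5 ranged from 53321 to 103286 CPM in KO and from 97522 to 102517 CPM in WT. The 3 red blood cell markers summed to 4276 to 6773 CPM in KO and 2620 to 3266 CPM in WT, and 0 of 3 were called by edgeR, with 3 of 3 at an unadjusted p under 0.05. Of the 2 endothelial markers, the 4 of smooth muscle and mesenchyme, the 5 of leukocytes, the 3 of muscle and the 1 of liver, 0 were called by edgeR, and 1, 0, 1, 2 and 0 had an unadjusted p under 0.05. The muscle markers summed to 32.5 to 130 CPM in KO and 20.8 to 23.3 CPM in WT, and the endothelial markers to 12910 to 19345 CPM in KO and 19100 to 28444 CPM in WT. At P7 in the Pkd1 model, edgeR called 0 of these 23 markers, none of them at an unadjusted p under 0.05, and the kidney epithelial sum ranged from 52736 to 70338 CPM in KO and from 71208 to 85361 CPM in WT. In the mean over both models, edgeR called the same 3 epithelial markers lower in KO, and all 5 had an unadjusted p under 0.05. Endothelial miR-126a-3p was called lower as well (-0.29 ± 0.08, SE, edgeR adjusted p = 0.0321), and 0 of the other lists of markers were called. Of all miRNAs 8% were called there. The only marker at 0 in any library was the muscle miRNA miR-206-3p, which had no read in 5 of the 36. The part of these cells in the result was not tested, and in a whole kidney fewer cells of a type and less RNA per cell cannot be told apart.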

How the data were processed

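The 36 small RNA libraries were made from mouse kidneys and sequenced. Per the study's methods and the submitters' notes, the authors took reads of more than 17 bases (CASAVA 1.8.2), mapped them to mm10 and quantified miRNAs of miRBase 21 with miRDeep2. The deposited values are raw read counts, 1 column per library, and 0 columns were left unused. They fill 2061 rows for 1915 mature miRNAs, since 83 miRNAs are listed under several hairpins. For each of those, only the row with the highest total was kept. The members and lists were chosen with earlier results of these data known.

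Counts were tested with edgeR 4.0.16 (quasi-likelihood test, TMM, R 4.3.3) in a fit of the 18 libraries of each model, and of all 36 for values across models. A miRNA was tested where 3 or more libraries of the fit had 10 or more counts, and p-values were adjusted over all of them by Benjamini-Hochberg. An adjusted p under 0.05 was called. SEs are on the log2 scale, and intervals span 2 SE. Arm ratios were compared by exact two-sided permutation of libraries within groups of the same model and age, or model (scipy 1.17.1). Correlations used log2(CPM + 0.1) and 100000 permutations, over all 36 libraries or, for deviations from group means, within groups. DESeq2 1.42.0 was an alternative. The genes named beside the members are those sharing a seed, the 5 most like each 3p arm with a mean of at least 10 CPM, at most the 3 called miRNAs with the largest change of the growth-linked and X chromosome lists, and called markers. The fits and permutation tests were tested on simulated data. The part of counting depth in the precision of low members such as miR-222-5p was not tested.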

Additional observations from a re-analysis of the deposited data

How the results depend on the processing

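The P7 difference between KO and WT kept its direction for both 3p arms in both models under every alternative run, at 0.70 to 0.85 (Pkd1) and 0.32 to 0.66 (Pkd2) for miR-221-3p and at 0.64 to 0.86 (Pkd1) and 0.43 to 0.92 (Pkd2) for miR-222-3p. Calls changed. In the Pkd1 model at P7, where 0 members were called, 2 were once the miR-10 share entered as covariate and 1 with DESeq2, which also called 1 in the comparison of P7 with P1. In the Pkd2 model at P7, where 1 was called, 0 were with library totals alone, 0 in the libraries compared only and 3 with the covariate, and 0 to 1 with a library left out. In the Pkd2 WT comparison of P7 with P1, where 1 was called, 0 were with library totals or with no filter on low counts, 2 with DESeq2's size factors, with DESeq2 or in the libraries compared only, and 3 with the covariate, and 0 to 2 with a library left out. Of the mean over both models, where 2 were called, 0 were with library totals, 1 with no filter and 4 with the covariate, and 1 to 2 with a library left out. Calls over all miRNAs moved the same way: in the mean, 62 were called of 775, 9 with library totals and 120 with the covariate, and at P7 3 and 94 in the Pkd1 and Pkd2 models became 18 and 168 with the covariate. For these changes the cause was not tested.

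Whether the replicate numbers pair the samples could not be told from the labels or from the values. Deviations of same-numbered libraries correlated at over 0.1 in 7 of 18 pairs of libraries. In 8 of 18 the libraries correlated best with their own number. With 3 libraries per group, such counts cannot exclude a pairing. With the replicate block, 0 members were called in the Pkd2 model at P7 (adjusted p of miR-222-3p = 0.123 in edgeR), 2 in the Pkd2 WT comparison and 1, miR-222-3p, in the mean over both models, where miR-221-3p had an adjusted p of 0.0826 in edgeR and 27 miRNAs of 775 were called. The block turned miR-221-5p at P3 to -0.25 in the Pkd1 model and to 0.033 in the Pkd2 model.

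Signs turned mostly where the value was small. Library totals alone turned the WT comparison of P7 with P1 to -0.32 for miR-221-3p and -0.38 for miR-222-3p in the Pkd1 model, and to -0.13, -0.058 and, for miR-222-5p, -0.37 in the Pkd2 model. They also turned KO against WT at P1 in the Pkd1 model to 0.39 for miR-221-3p and 0.25 for miR-222-3p, where the median of all miRNAs moved to 0.38, at P3 in the Pkd2 model to 0.034 and 0.15, the Pkd1 comparison of P7 with P1 effects to -0.032 for miR-222-5p, and r of the miR-221 arms to -0.23 and of the 5p arms to -0.26. Deviations from group means turned r to -0.22 for miR-221-3p with miR-222-5p and -0.33 for the 5p arms. The covariate turned miR-221-3p at P1 in the Pkd1 model to 0.080. The difference between models for miR-222-3p became -0.011 with DESeq2's size factors, -0.009424 with DESeq2 and -0.052 in the libraries compared only. The KO difference of the ratio of 3p arms became 0.011 with medians and 0.0022 with the miR-10 share regressed out, alternatives of which the last was chosen after seeing the data.

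With 1 library left out, the miR-221 arm ratio in KO ran from -0.038 to 0.36, the ratio of 3p arms from -0.033 to 0.029 between genotypes and from -0.045 to 0.010 between ages. KO against WT ran, for miR-221-3p, from -0.12 to 0.015 at P1 and -0.51 to 0.085 at P3 in the Pkd1 model and -0.28 to 0.13 at P3 in the Pkd2 model. For miR-221-5p it ran from -2.29 to 1.93 at P3 and -0.037 to 0.84 at P7 in the Pkd1 model, and -0.15 to 0.37 at P1 and -1.30 to 1.22 at P3 in the Pkd2 model. At P3 it ran from -0.19 to 0.26 for miR-222-3p in the Pkd2 model and, for miR-222-5p, from -0.063 to 0.44 in the Pkd1 and -0.00038 to 0.22 in the Pkd2 model. The difference between models ran from -2.10 to 0.077 for miR-221-5p and -0.18 to 0.28 for miR-222-3p.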
